A study of Mus musculus with 12 samples.

Results

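The SOX transcription factors examined here were 8 genes, Sox9, Sox4, Sox5, Sox6, Sox7, Sox13, Sox17 and Sox18, taken by symbol from the 54227 gene symbols of the deposited expression table. They were followed through 4 populations of dissociated liver cells sorted by the brightness of EGFP. All mice were C57Bl/6 and carried the transgene Sox9EGFP, and all were fasted for 16 h, so the EGFP-negative cells came from animals of the same genotype and feeding state. From the dimmest to the brightest gate the populations are named neg, sub, low and high, where sub stands for the gate labelled sublow. Every library came from 12000 cells, with 3 libraries per population and 12 in all. The labels give neither the ages of the mice nor how the transgene was built. A tag in the sample descriptions is shared by the same-numbered libraries of the 4 gates, and its meaning is not stated. The labels do not say whether libraries of a population came from separate mice, so the p-values measure only the spread between these libraries. Gating on EGFP selects on the reporter named for Sox9, and the level of Sox9 is therefore a check of the gates rather than a separate readout.

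SOX proteins are transcription factors that bind the minor groove of DNA through a shared HMG box and bend it, usually together with partner factors. SOXE factors such as Sox9 and SOXC factors such as Sox4 act in epithelial progenitors, and Sox9 marks the bile duct epithelium of the adult liver, where both genes take part in duct formation. The SOXD factors Sox5, Sox6 and Sox13 lack a transactivation domain of their own and work with other SOX proteins. The SOXF factors Sox7, Sox17 and Sox18 are best known for their work in blood and lymphatic endothelium. The set was read as epithelial genes, mainly Sox9 and Sox4, set against the endothelial SOXF genes.

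RefSeq promoter windows matched 4 of the 8 genes by symbol, namely Sox4, Sox5, Sox6 and Sox13. The windows of Sox4 and Sox5 are shown because these 2 genes had reads in all 12 libraries. Each window is the 250 bases before the annotated start, on the minus strand of GRCm38.p6, written 5′ to 3′ with matches to the searched words in capitals. Sox4 lies at chr13:28953700-28953949 and Sox5 at chr6:143947107-143947356, the latter inside the longer Sox5 gene of the GENCODE M21 annotation.
Sox4: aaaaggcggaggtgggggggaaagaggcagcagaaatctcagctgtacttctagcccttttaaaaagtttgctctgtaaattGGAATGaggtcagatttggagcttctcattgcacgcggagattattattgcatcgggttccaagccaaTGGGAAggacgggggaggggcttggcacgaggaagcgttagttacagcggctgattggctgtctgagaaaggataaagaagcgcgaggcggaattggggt
Sox5: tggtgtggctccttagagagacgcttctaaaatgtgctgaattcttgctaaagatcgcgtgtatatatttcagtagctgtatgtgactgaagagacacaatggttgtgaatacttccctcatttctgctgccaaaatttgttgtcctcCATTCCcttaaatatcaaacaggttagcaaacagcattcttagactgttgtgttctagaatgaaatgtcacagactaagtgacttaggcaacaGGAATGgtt

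The words searched on both strands included GGAATG for TEAD, TGGGAA for RBPJ, CGGAAG for ETS factors, AACAAT for SOX and TATAAA for the TATA box; the TEAD, RBPJ and ETS words share the letters GGAA. In Sox4 the capitals mark a TEAD word 168 bases and an RBPJ word 100 bases before the start. In Sox5 they mark a TEAD word 102 bases before the start on the opposite strand, printed as CATTCC, and another 9 bases before it. Among 32851 promoter windows of the same length, 12.6% held the TEAD word and 21.6% the RBPJ word, so such matches are common and are given only as a description. The Sox4 window held 11 CpG dinucleotides, the Sox5 window 3 and the median window 6.

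Library depth, recovered from the values as described with the processing, ranged from 8775387 to 15535588 reads, and between 9039 and 12687 symbols were above 0 in a library. Endothelial and biliary marker sums set neg and sub apart from each other and from low and high. Low and high overlapped in each sum below except the biliary one, and limma called no gene between them. The sum of 10 endothelial markers fell from 132175 to 172413 normalised counts in neg, through 36802 to 50357 in sub, to 1001 to 2269 in low and 515 to 1446 in high. In neg, 9 of 10 biliary markers had at most 3 reads in every library and their sum was 23.2 to 413, against 19753 to 37124 in sub, 74232 to 86847 in low and 63342 to 65805 in high. Sub thus held biliary and endothelial transcripts together, and also stellate ones, whose 10 markers summed to 26440 to 33436 there, 20380 to 34904 in neg and at most 2625 in low and high. Hepatocyte markers summed to 395 to 871 in neg, 6880 to 7523 in sub, 13930 to 21610 in low and 17968 to 20955 in high. The 10 Kupffer and macrophage markers summed to 0 to 1007 normalised counts in neg, 490 to 587 in sub, 743 to 1220 in low and 519 to 1526 in high. Of these, Csf1r, a macrophage growth factor receptor, was at 0 in neg and was called higher in low and in high (limma adjusted p = 0.0162 and 0.0189), while the other 4 of the 5 tested were called in neither comparison and C1qa was at 0 in all libraries. The 10 lymphocyte markers summed to 0.691 to 1108 in neg, 0 in sub, at most 48.2 in low and 29.4 to 431 in high. The part of these cell types in the SOX values was not tested.

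Genes were tested with limma on log2(normalised count + 1), and a log2 difference below is on that scale and is followed by its standard error. A change was called at a Benjamini-Hochberg adjusted p under 0.05 over the 16128 genes whose mean over the 12 libraries was at least 10. All 8 SOX genes passed that filter and 7 had a mean of at least 100, the exception being Sox18 at 34.7. Over the 4 populations together, limma's moderated F test called 2 of the 8, Sox9 and Sox4, where 4.23% of all tested genes were called. The call on Sox9 is a check of the gates.

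Sox9 (chr11:112782224-112787760, plus strand, 3 exons) encodes the SOXE factor after which the reporter is named. It had 1 read in neg library 1 and none in the other two neg libraries. In normalised counts it stood at 6653, 4237 and 3707 in the sub libraries, 8838, 10313 and 17140 in low, and 11793, 13969 and 13497 in high. The neg libraries were thus apart from all 9 EGFP-positive ones, and the low and high libraries lay above every sub library. With neg at the floor of 3 reads per library, low was at least 3297-fold and high at least 3567-fold higher (limma adjusted p = 8.8e-10 and 7.32e-10). The order of means, neg, sub, low, high, followed the gates. The step from low to high, 0.17 ± 0.76 (adjusted p = 1), was within the spread, and low against sub did not pass either, at 1.30 ± 0.76 (adjusted p = 0.608).

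Sox4 (chr13:28948919-28953713, minus strand, 1 exon), a SOXC factor expressed in many progenitor cells, was the only member besides Sox9 called in a limma contrast fitted to all 12 libraries. It had 942, 2039 and 925 normalised counts in the neg libraries, 5182, 3271 and 9584 in sub, 10199, 11566 and 14999 in low, and 8804, 11516 and 12033 in high. Unlike Sox9 it was well above 0 in neg, with 958 to 1667 reads per library. All sub libraries lay above all neg libraries, all low libraries above all sub libraries, and the low and high libraries overlapped.

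Sox4 rose 4.62-fold in means from neg to sub, a log2 difference of 2.17 ± 0.38 (limma adjusted p = 0.00369). It was 9.41-fold higher in low than in neg (3.32 ± 0.38, adjusted p = 1.58e-05) and 8.28-fold higher in high than in neg (3.14 ± 0.38, adjusted p = 3.04e-05). The further 2.04-fold difference between low and sub was not called, at 1.15 ± 0.38 (adjusted p = 0.223), although the libraries did not overlap. High and low differed by -0.18 ± 0.38 (adjusted p = 1). The call for sub against neg was lost when only those 2 populations were fitted (adjusted p = 0.284), and it was kept with each library left out in turn (adjusted p 0.00119 to 0.0389). In the RefSeq window above, Sox4 carried the words of the YAP partner TEAD and the Notch effector RBPJ; binding was not measured. GENCODE M21 places Gm26735 across the Sox4 exon on the opposite strand, and no source used here says whether counting used strand.

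**Figure D1:**
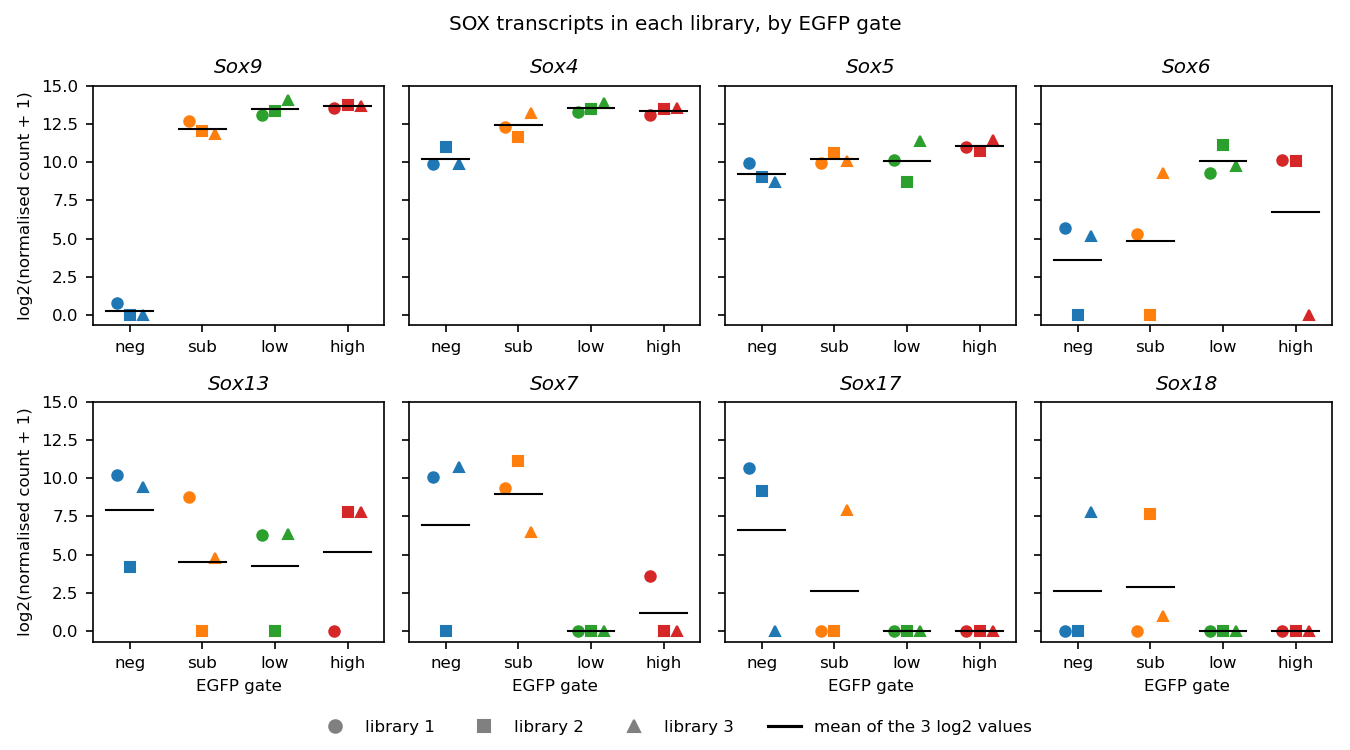
Normalised counts of the 8 SOX genes on the log2(value + 1) scale (y axis) in each of the 12 libraries, by EGFP gate (x axis); symbols mark library number, colours mark the gate and black lines the mean of 3 log2 values. Sox9 and Sox4 are tight in low and high, whereas Sox7, Sox17 and Sox18 have reads mainly in neg and sub and are scattered there.

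In limma, Sox9 and Sox4 were the members called in each comparison with neg. The gates select on the reporter named for Sox9, so its part in the counts below is a check of the gates. Sox4 was the only other member called by limma in the fit to all 12 libraries. For sub against neg, limma called 2 of 8 members higher and none lower, where 1.04% of all tested genes were called higher. With only those 2 gates fitted the count was 0 of 8, with Sox9 at an adjusted p of 0.0621, where 38 of 14795 tested genes were called. For low against neg and for high against neg it again called 2 of 8 higher, where 2.55% and 2.44% of all genes were. For low against sub, high against low and high against sub it called 0 of 8, where 0.744%, 0% and 0.986% of all genes were called in either direction. At an unadjusted p under 0.05 those 3 comparisons had 2, 0 and 2 members (10.2%, 4.24% and 10.2% of all genes). In the same order edgeR called 1, 0 and 0 (1.11%, 0.211% and 1.41%) and DESeq2 2, 0 and 3 (9.88%, 4.01% and 9.21%). Sub, low and high against neg gave 2, 3 and 2 members in edgeR (1.28%, 3.73% and 3.84% of all genes) and 2, 4 and 4 in DESeq2 (10.5%, 14.6% and 14%). The added members were Sox7 for low against neg in edgeR, and Sox7 and Sox17 in DESeq2. Without overlap of libraries, sub lay above neg for Sox9 and Sox4 (4.69% of all genes) and low lay above sub for the same pair (5.75%). Low lay above neg for Sox9, Sox4 and Sox6 (8.38%), high above neg for Sox9, Sox4 and Sox5 (10.2%), and high above sub for Sox9 and Sox5 (7.2%). Comparisons with neg share the neg libraries, so their calls are not separate evidence.

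**Figure D2:**
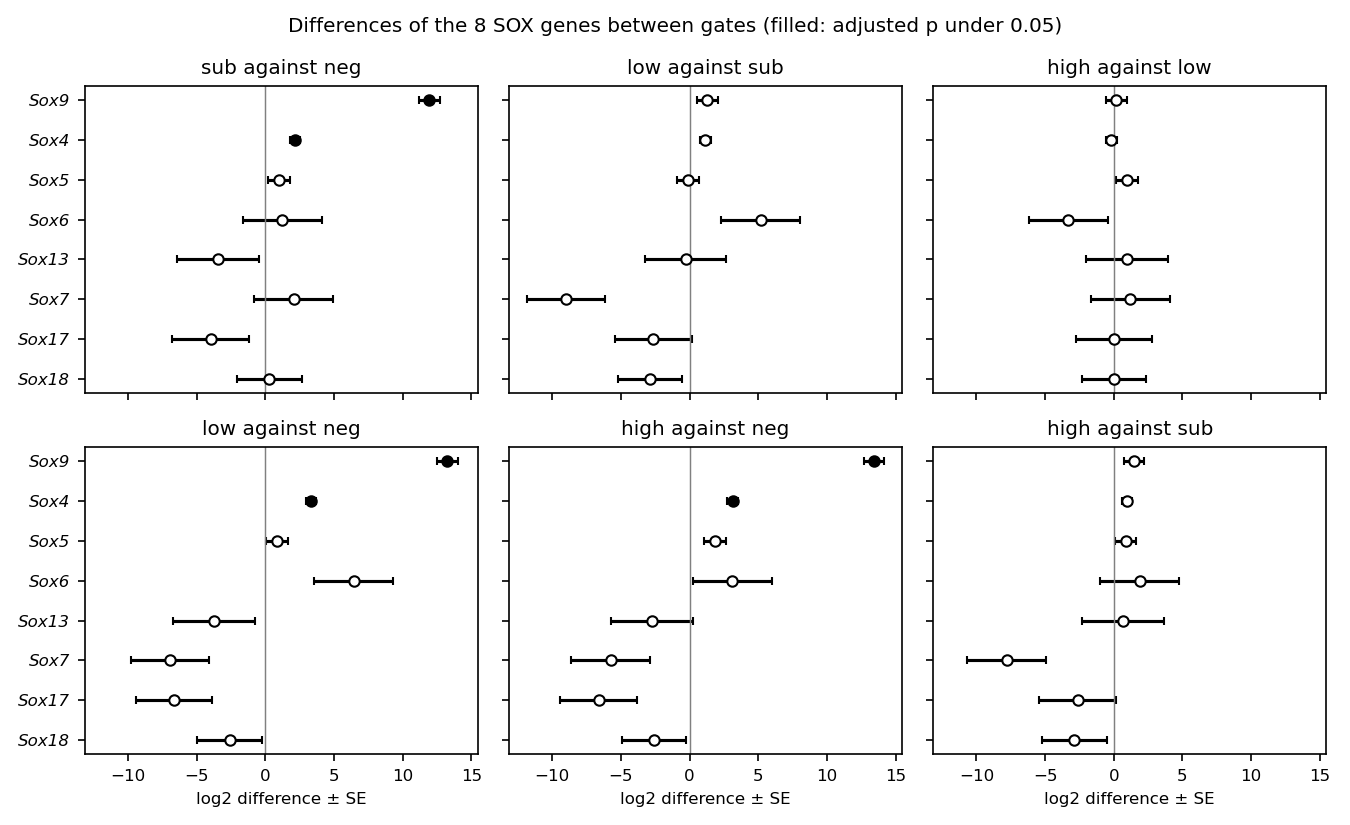
Log2 difference of each SOX gene between gates (x axis, first-named gate minus the second) with its limma standard error, in 6 comparisons. Filled points passed an adjusted p of 0.05; these are Sox9 and Sox4 in the 3 comparisons with neg, and the bars of Sox6, Sox7, Sox13 and Sox17 are several times wider than that of Sox4.

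Among the SOXD genes, Sox5 (chr6:143828425-144781977, minus strand), whose long isoform pairs with Sox6 in cartilage, was read in every library. It had 1001, 525 and 411 normalised counts in neg, 987, 1538 and 1087 in sub, 1141, 417 and 2726 in low, and 2028, 1717 and 2818 in high. Every high library lay above every neg and every sub library, and the low libraries spanned nearly the whole range. The means ordered neg, sub, low, high, yet no neighbouring pair separated: sub against neg was 0.98 ± 0.79, low against sub -0.12 ± 0.79 and high against low 0.97 ± 0.79. High against neg was 1.83 ± 0.79, a 3.39-fold ratio of means, and was not called (limma adjusted p = 0.238).

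Sox6 (chr7:115470872-116038796, minus strand), the dimer partner of Sox5, varied widely within gates. It had 49.7, 0 and 35.7 normalised counts in neg, 37.6, 0 and 636 in sub, 623, 2243 and 856 in low, and 1117, 1093 and 0 in high. All low libraries exceeded all neg libraries. The third high library was at 0 although the other two were among the highest values of the gene. Low against neg was 6.43 ± 2.87 on the log2 scale, without a call (limma adjusted p = 0.269).

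Sox13 (chr1:133382303-133424377, minus strand), a SOXD factor also found in arterial walls and T cells, showed no ordered pattern. It had 1211, 17.1 and 682 normalised counts in neg, 436, 0 and 26.9 in sub, 78.7, 0 and 82.2 in low, and 0, 223 and 222 in high. Its highest 2 libraries were in neg, and every pair of gates overlapped. The largest difference, low against neg, was -3.71 ± 2.97 (limma adjusted p = 0.583). Summed, the 3 SOXD genes gave 542 to 2262 normalised counts in neg, 1461 to 1751 in sub, 1842 to 3664 in low and 3033 to 3145 in high, with Sox5 the main part of the sum in sub and in high.

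The SOXF genes ran the other way in their values, but none was called by limma. Sox7 (chr14:63943673-63950732, plus strand), a regulator of vessel formation, had 1085, 0 and 1689 normalised counts in neg, 673, 2231 and 86.8 in sub, and 11.2, 0 and 0 in high. It had no read in any low library, where 3 reads would be worth 2.23 to 2.55 normalised counts. All 3 sub libraries lay above all low and all high libraries, the only member to do so (low below sub without overlap, 5.99% of all genes; high below sub, 5.91%). The neg libraries overlapped the low and high libraries only through neg library 2, which was at 0. They overlapped the sub libraries with or without it.

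Sox7 was at least 391-fold lower in low than in sub, with a log2 difference of -8.99 ± 2.86 (limma adjusted p = 0.192). On the recovered reads, edgeR gave an adjusted p of 0.0309 and DESeq2 one of 2.40e-05 for that comparison. Without sub library 2 the bound was 149-fold. Against neg, low was at least 363-fold lower (limma adjusted p = 0.220, and 0.0350 without neg library 2; edgeR adjusted p = 0.0124), and that bound was 213-fold without neg library 3. The F test over the 4 gates gave limma adjusted p = 0.162, edgeR 0.00986 and, without neg library 2, limma 0.0351. The limma call on Sox7 against neg and over the gates therefore depended on neg library 2, and all these calls on the tool.

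Sox17 (chr1:4490931-4497354, minus strand), a factor of arterial endothelium and endoderm, was above 0 in 3 of 12 libraries. These were neg libraries 1 and 2, at 1658 and 580 normalised counts, and sub library 3, at 240; neg library 3 and the other two sub libraries were at 0, as were all low and high libraries. Low was at least 293-fold and high at least 246-fold lower than neg (limma adjusted p = 0.229 and 0.222). DESeq2 gave adjusted p values of 7.23e-09 and 9.15e-09, whereas edgeR called Sox17 in neither comparison. In the simulation with added spread described with the processing, DESeq2 also called many unchanged genes. Without neg library 1 the fold bounds were 114-fold and 95.6-fold (limma adjusted p = 0.463 and 0.456). Gm37587, which overlaps its exons on the opposite strand, was at 0 in all libraries.

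Sox18 (chr2:181669836-181671640, minus strand), known from lymphatic and hair follicle defects in mutant mice, exceeded 3 reads in only 2 libraries. It stood at 217 normalised counts in neg library 3 and at 198 in sub library 2, with 1 read in sub library 3 and 0 elsewhere. No contrast was called (limma adjusted p 0.629 or more in the 6 contrasts). Its place among endothelial genes thus rests on 2 libraries here.

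Within a gate, the SOXF reads fell on different members in different libraries. In neg library 1 they were in Sox17 and Sox7, in neg library 2 in Sox17 alone and in neg library 3 in Sox7 and Sox18. In sub library 1 they were in Sox7 alone, in sub library 2 in Sox7 and Sox18, and in sub library 3 mostly in Sox17. The sum of the 3 genes was 2744, 580 and 1907 normalised counts in neg, 673, 2430 and 328 in sub, 0 in every low library, and 11.2, 0 and 0 in high. The neg and sub sums overlapped, and each of those 6 libraries exceeded each low and high library.

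Values at 0 beside a clearly read library of the same gate were frequent in these data. Among genes with a gate mean of at least 100, a library at 0 was found for 41.0% in the neg gate, 42.5% in the sub gate, 33.6% in the low gate and 25.1% in the high gate. The standard errors of Sox6, Sox7, Sox13 and Sox17 were 2.78 to 2.97 log2 units, above the median of 2.35 over all tested genes, against 0.38 for Sox4. With 3 libraries per gate, none of their differences passed in limma, that of Sox7 between sub and low included.

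Endothelial and stellate marker sums were, like the SOXF sum, higher in neg and sub than in low and high. From neg to sub, however, the endothelial sum dropped without overlap while the SOXF sums overlapped, as did the stellate sums. Within neg, library 2 had the highest endothelial sum, 172413, and the lowest SOXF sum, 580. SOXF summed to 0.336% to 1.95% of the 10-marker endothelial sum in neg and 0.892% to 4.82% in sub, ranges that overlap. In low, Emcn alone of the 10 markers was at the floor in all 3 libraries, and in high Eng, Emcn and Flt1 were. The part of endothelial and of stellate marker level in the SOXF values was not tested. In bulk libraries of this kind, fewer cells of a type and less RNA per cell cannot be told apart. Sox9 was 17.9% to 20.2% of the 10-marker biliary sum in sub, 11.9% to 19.7% in low and 18.6% to 21.5% in high, against at most 0.167% in neg. The part of biliary, hepatocyte, endothelial and stellate marker levels in the Sox4 difference was likewise not tested; in neg, with 9 of 10 biliary markers at the floor, Sox4 still had 925 to 2039 normalised counts.

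**Figure D3:**
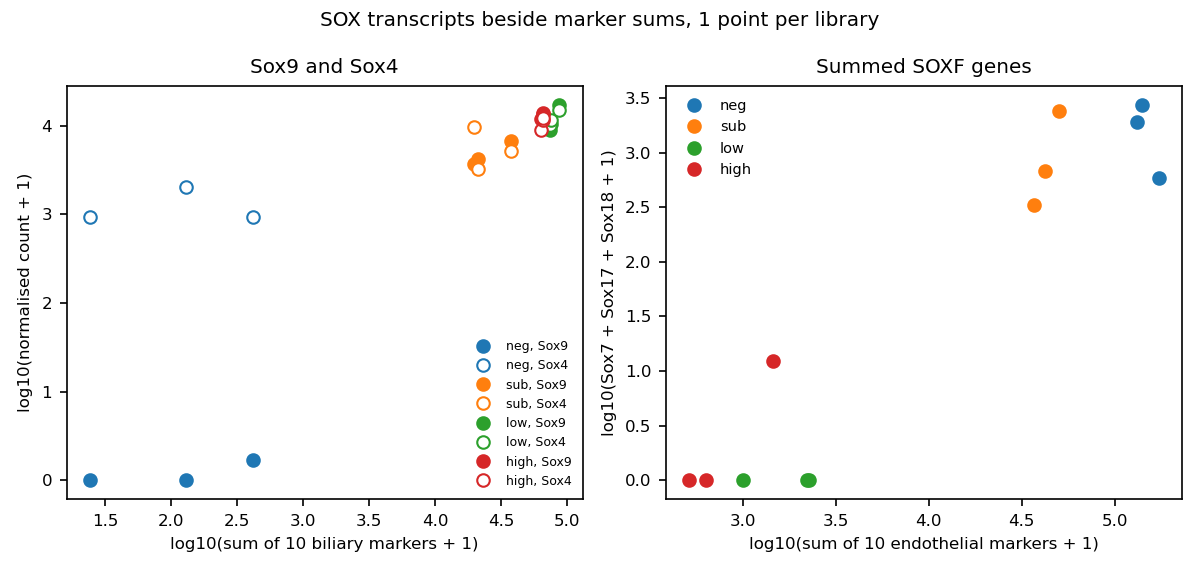
Left, Sox9 (filled) and Sox4 (open) against the sum of 10 biliary markers; right, summed Sox7, Sox17 and Sox18 against the sum of 10 endothelial markers, both axes log10(normalised counts + 1), with 1 point per library and colour for EGFP gate. Sox9 is at 1 read or none in the neg libraries while Sox4 is at 925 or above there, and SOXF is above 300 in neg and sub but at most 11.2 in low and high.

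To compare levels between genes, normalised counts were divided by the length in kb of the longest GENCODE M21 transcript. Sox9 and Sox4 have 1 annotated transcript each, but Sox5 has 14, Sox6 16 and Sox17 8. Which of these were present was not tested, so levels of such genes are understated where shorter transcripts were present. The summed level of the 8 members and 12 other SOX genes was 681 to 1585 per kb in neg, 2941 to 3392 in sub, 4515 to 7771 in low and 5102 to 6333 in high. Sox9 made 47.3% to 53.3% of the sum in low and 51.5% to 55.9% in high, ranges that overlap. Sox4 made 40.3% to 47.1% in low and 36.0% to 39.6% in high. These Sox4 shares lay close together without overlap, and no such share was computed for other genes. The normalised counts of Sox4 overlapped between low and high, with an uncalled limma difference of -0.18 ± 0.38 for high against low. Sub was mixed, with Sox9 at 27.8% to 47.4%, Sox4 at 23.2% to 61.9% and Sox7 at 0.815% to 23.0%. In neg no gene led in all libraries: Sox4 ranged from 12.4% to 62.4%, Sox7 from 0% to 42.8%, Sox17 from 0% to 32.3% and Sox13 from 0.681% to 20.7%.

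Per kb, Sox4 stood to Sox9 at 0.672, 0.666 and 2.23 in the sub libraries, 0.995, 0.967 and 0.755 in low, and 0.644, 0.711 and 0.769 in high. Among the 9 EGFP-positive libraries, sub library 3 alone held more Sox4 than Sox9 per kb, and the 3 neg libraries did so with Sox9 at 1 read or none. The low and high ranges overlapped at 0.755 to 0.769.

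**Figure D4:**
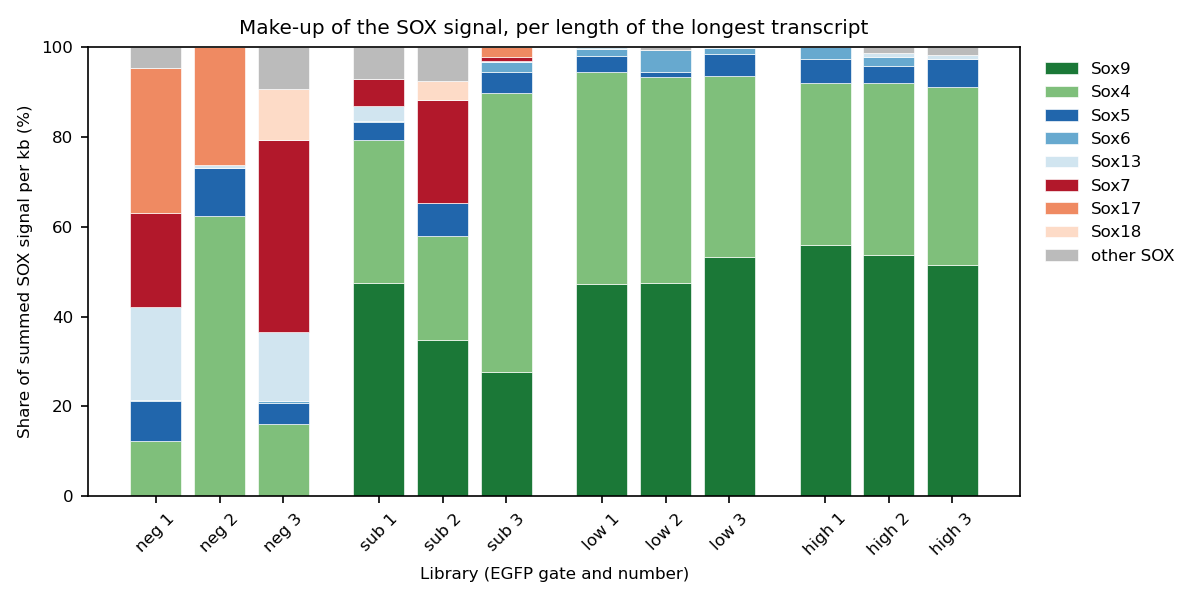
Share of the summed SOX level per kb (y axis, percent) held by each member and by the 12 other SOX genes together, in each library (x axis). Sox9 and Sox4 fill most of the bars in low and high, whereas Sox7, Sox17, Sox18 and Sox13 take varying parts of the neg bars.

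Genes linked to SOXF factors in endothelium formed a list of 21, of which 20 were tested. From sub to low, 3 fell and none rose, where 0.614% of all genes were called lower: Erg, an ETS factor of endothelium, was at least 402-fold lower (limma adjusted p = 0.0382), and Cdh5, the endothelial cadherin (adjusted p = 0.00985), and Vwf, which carries clotting factor VIII (adjusted p = 0.00665), fell as well. Cdh5 had 3735, 5189 and 4036 normalised counts in sub and 8.16, 0 and 0 in low. Vwf had 4057, 10752 and 4387 in sub and 2.97, 158 and 0.822 in low. The median of the 20 was -5.59, or -5.87 if genes under the read floor take their lower bound, and that of all genes was 0. The 3 calls became 0 with only the 2 gates fitted or without sub library 2, and 1 without sub library 3. Of all genes 23, 7 and 24 were lower there, against 99 with all libraries. The count was 7 with a pseudocount of 5 (0.918% of all genes) and 5 with a mean of at least 100 (128 of 9614 genes). From neg to low, 9 fell (2.15% of all genes). Kdr, the main VEGF receptor, went from 24647, 35732 and 25356 to 223, 0 and 91.2, and Dll4, a Notch ligand of arteries, from 1906, 1715 and 3751 to 75.0, 0 and 0, so the ratio of the Dll4 means rests on the first low library, and that library also holds most of the Kdr mean. From neg to high, 12 fell (2.25%), and from sub to high 4 fell (0.868%), Erg, Fli1, Dll4 and Cdh5. Leaving out any neg library gave 5 or 6 lower genes for low against neg, where 223 to 234 of all genes were lower. A fit of only those 2 gates gave 6, with 159 of all genes lower against 346 with all 12 libraries. For high against neg 7 were lower without neg library 1, neg library 2 or high library 2 (247, 249 and 204 of all genes). There were 6 without high library 1 and 8 without high library 3 (216 and 191), against 363 of all genes with all libraries. For high against sub the count was 2 with only those gates fitted, where 43 of all genes were lower against 140 with all libraries. It was 0 without sub library 1, 2 or 3 or high library 3 (49, 38, 45 and 58 of all genes). It was 1 without high library 1 or 2 (77 and 65) and 9 without low library 2 (155). The count for high against sub was also 7 with a pseudocount of 5 (1.09% of all genes) and 8 with a mean of at least 100 (1.7%). In order of sub against neg, low against sub, high against low, low against neg, high against neg and high against sub, edgeR called 1, 5, 0, 8, 12 and 8 genes of this list in either direction and DESeq2 1, 7, 4, 9, 15 and 12, beside the shares of all genes given with the members. For high against low limma called 0 of the 20, with 1 at an unadjusted p under 0.05 (4.24% of all genes).

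Prox1, the lymphatic target of Sox18 that is also expressed in hepatocytes and bile duct cells, rose instead. It had 372 ± 578 normalised counts in neg (SD, n = 3), 3542 ± 1958 in sub, 5956 ± 949 in low and 6742 ± 2404 in high, and it was called higher than neg in all 3 gates (limma adjusted p = 0.0185, 0.00230 and 0.00168). All 3 calls were lost when only the 2 gates compared were fitted. The sub call was also lost without a filter on low values and without neg library 2, any sub library, any low library or high library 3. With only neg and sub fitted, 1 gene of the list was called lower in sub, where 20 of 14795 tested genes were. With all 12 libraries none was called lower from neg to sub, and the median was -0.37. Nr2f2, a venous factor, differed by -0.08 ± 0.40 there and fell from neg to low by 1.69 ± 0.40 on the log2 scale (adjusted p = 0.0188).

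Among 15 regulators of biliary cells, 5 rose from neg to sub and none fell, where 1.04% of all tested genes were called higher. Among the 5 were Notch2, the receptor needed for duct formation, the transcription factors Onecut2 and Klf5, and Spp1, the secreted protein osteopontin. Notch2 had 25.6, 0 and 505 normalised counts in neg and 2346, 2862 and 1298 in sub. Onecut2 and Klf5 were at 0 in neg and stood at 2869, 433 and 458 and at 2829, 255 and 220 in the sub libraries, both highest in the first. Spp1 was at least 2721-fold higher. From neg to low 9 rose (2.55% of all genes), with Onecut1, Foxa2, Grhl2 and Bicc1 added. Tgfbr2, a TGF-beta receptor, fell from 6341, 4832 and 3236 to 546, 0 and 106 (limma adjusted p = 0.0217); the call was lost without a filter, with only the 2 gates fitted, and without any neg library or low library 2. From neg to high the count was again 9 up (2.44%), with none down in limma. In other settings 1 was called lower: with a pseudocount of 5, with only the 2 gates fitted, without low library 2, in edgeR and in DESeq2. Of all genes 410, 332, 394, 295 and 939 were lower there, in that order. Tgfbr2 stood at 307, 441 and 40.0 in the high libraries. From sub to low, low to high and sub to high limma called 0 of 15; 6, 0 and 7 had an unadjusted p under 0.05 (10.2%, 4.24% and 10.2% of all genes). In the same comparisons edgeR called 1, 0 and 1 (1.11%, 0.211% and 1.41%), as did DESeq2 (9.88%, 4.01% and 9.21%). In limma, low and high against sub each gave 1 higher with only the 2 gates fitted and without any neg library. Of all genes, 14 to 21 and 20 to 26 were higher there. High against sub also gave 1 higher without sub library 1 (23 of all genes). Low against sub gave 1 lower without low library 1 (94 of all genes). When only neg and sub were fitted, 1 of 15 was called, where 38 of 14795 tested genes were. Spp1 is also among the biliary markers.

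Genes most like each SOX gene were taken by Pearson's r of log2 values over the 12 libraries, among 9613 genes with a mean of at least 100, as a description in which shared libraries and gates enter every r. For Sox9 they were Spp1 (r = 0.999), Scara3, Pkhd1, Slc2a2 and Clmn, all at 0.997 or more. For Sox4 they were Itgb8, an integrin subunit (r = 0.968), Grhl2, an epithelial transcription factor (r = 0.967), Abtb2, Pdgfc and Klf6. For Sox7 they were Gpc6 (r = 0.964), Ccbe1, a secreted factor of lymphatic growth (r = 0.963), Tbkbp1, Nova2 and Tnc. For Sox17, with 3 libraries above 0, they were Cxxc4 (r = 0.991), Dnm3os, Dhx58, Gabra3 and Atp5md. The closest gene was Vps37c for Sox5 (r = 0.905), Cep295 for Sox6 (r = 0.933) and Tmed9 for Sox13 (r = 0.912).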

How the data were processed

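RNA from 4 EGFP gates of mouse liver cells was sequenced after random-primed total-RNA library preparation (SMARTer Stranded Total RNA Pico Kit v2), per the labels' protocols. The submitters' processing notes name Salmon, DESeq2 1.26.0 and the build mm10, without roles; annotation and the use of strand are not given in the sources used here. The authors deposited normalised counts (unit: signal) for 12 libraries. Every non-zero value (100%) was, within a tolerance of 0.001, an integer times its library's lowest value, 0.691 to 1.22, so reads were recovered by division. In sub library 3 and high library 2 that lowest value, 0.997 and 1.01, lay close to 1, where recovery from the steps is less certain. Intervals and floors from reads cover counting error only, and a floor was 3 reads in every library of a gate. A fold against a gate at the floor is a lower bound from the largest such floor, and other folds are ratios of means.

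Genes with a mean of at least 10 (16128; 33571 were at 0 throughout) were tested on log2(value + 1) in limma 3.58.1 (R 4.3.3; lmFit, then trended eBayes), with gate as the only term over all 12 libraries, in 6 two-sided contrasts and a moderated F test, adjusted by Benjamini-Hochberg at 0.05. The scale understates changes of low genes. edgeR 4.0.16 (quasi-likelihood) and DESeq2 1.42.0 were run on recovered reads of all 12 libraries as alternatives, beside other pseudocounts, filters and scaling, a replicate block, fits of only 2 gates and each library left out. On simulated data with read-sampling noise alone each tool recovered the changed genes. A second simulation added the spread between libraries that edgeR estimated for each gene from these 12 libraries. There limma and edgeR missed nearly all changed genes, and DESeq2 missed most and called many unchanged genes. Gene positions and lengths are from GENCODE M21 (GRCm38), where 52258 of 54227 symbols matched; promoter sequences are from RefSeq (GRCm38.p6).

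The members and the gene lists were chosen with earlier results of these data known. Named genes were the members in every contrast, other SOX genes with a mean of at least 10, list genes past the threshold with up to 4 examples, and the 5 genes most like each member with a mean of at least 100. The marker genes singled out at the floor or at 0, and Nr2f2 from neg to sub, were named after their values were seen. Values of some list genes are not reported here.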

Additional observations from a re-analysis of the deposited data

How the results depend on the processing

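Rescaling to equal totals moved the median of all genes by less than 0.1 log2 units. Of all genes, limma called 192 for sub against neg, 120 for low against sub, 0 for high against low (684 at an unadjusted p under 0.05), 757 for low against neg, 757 for high against neg and 159 for high against sub. DESeq2 called 1698, 1593, 646, 2352, 2257 and 1485 in the same order, and edgeR called 34 for high against low. Fits of only the 2 gates called 38, 39, 6 and 302 in the first 4 of these, 630 for high against neg and 64 for high against sub; these kept fewer genes and 6 libraries. High against low gave 1 call without a filter. Leaving out each library gave 135 to 239 for sub against neg, 10 to 126 for low against sub (10 without sub library 2), 0 to 4 for high against low, 445 to 763 for low against neg, 424 to 773 for high against neg, 46 to 176 for high against sub and 509 to 686 for the F test, against 682. In all these shifts the cause was not tested. Deviations from gate means of libraries with the same number correlated at 0.0088 on average (18 pairs, -0.0161 to 0.0266) and those with different numbers at -0.0044 (36 pairs). The numbers were therefore not taken to pair libraries, although a correlation near 0 cannot show that same-numbered libraries have separate sources. With the replicate block high against low gave 1 call, no call on a SOX gene changed, and the Sox4 difference between sub and neg had a limma adjusted p of 0.00258.

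Sox9 for sub against neg had a limma adjusted p of 0.0621 when only those gates were fitted, and high against sub passed there (0.0371) and in DESeq2 (0.0391). DESeq2 also called Sox17 for low and high against sub, which rests on sub library 3, the sub library with reads, and Sox7 for high against neg and sub. Direction turned in members without a call: edgeR gave -0.13 for Sox18 in sub against neg, 0.31 for Sox5 in low against sub (DESeq2 0.25) and -0.033 for Sox13 in high against sub (DESeq2 -0.058). With 1 library left out, sub against neg ranged from -2.09 to 2.88 for Sox18, -0.99 to 3.67 for Sox6 and -1.41 to 3.95 for Sox7. Low against sub ranged from -2.56 to 1.83 for Sox13 and -0.78 to 0.58 for Sox5. High against low ranged from -1.14 to 3.57 for Sox13, -5.01 to 0.058 for Sox6 and -0.027 to 0.45 for Sox9, and high against sub from -1.58 to 3.28 for Sox13 and -0.55 to 5.25 for Sox6.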

Other observations

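Of 12 other SOX genes in the table, 7 had no read anywhere and 3 had a mean of at least 10. Sox12, the SOXC relative of Sox4, had 336, 0 and 263 normalised counts in neg, 363, 0 and 0 in sub, 0, 154 and 0 in low, and 8.65, 68.7 and 489 in high. Sox8, the SOXE relative of Sox9, was at 0, 0 and 135 in neg, 50.1, 670 and 0 in sub, 0 in low and 0, 61.7 and 0 in high. Sox10, the SOXE factor of neural crest and glia, was read only in sub library 1, at 393. None of the 3 was called by limma in any contrast (adjusted p 0.557 or more).

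SOX proteins interact with the WNT pathway, from which 6 genes were listed, Ctnnb1, Tcf7, Tcf7l1, Tcf7l2, Lef1 and Axin2. All 6 passed the filter and gave 0 calls in limma in each of the 6 contrasts. Ctnnb1, the signalling partner beta-catenin, had mean normalised counts of 2023 for neg, 2977 for sub, 5019 for low and 4152 for high. At an unadjusted p under 0.05 limma had at most 3 of these genes in a contrast, in low against neg, where 16% of all genes were under that value. edgeR called 0 in each contrast and DESeq2 at most 1, against 0.211% to 3.84% and 4.01% to 14.6% of all genes.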
